A study of Mus musculus with 6 samples.

Results

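A set of 52 mouse genes that license, start, copy and supply DNA replication was followed in cultured muscle satellite cells (MuSCs), the stem cells of skeletal muscle, from control and *Piezo1* cKO mice. *Piezo1* encodes a mechanosensitive ion channel. The genes were chosen by symbol, as origin licensing, replisome, nucleotide supply and S-phase regulator genes. Of the 20654 genes of the count table, 51 belong to the set, and 49 of these were among the 8551 genes that passed the filter on low counts. *Pole2* and *Chaf1a* had too few counts to be tested (averages of 6.74 and 6.85 CPM, counts scaled to library size), and *Fen1* was not analysed here.

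RNA-seq was carried out on 3 libraries labelled wild type (the control group) and 3 labelled *Piezo1* cKO, all from MuSCs of C57BL/6 background grown for 3 d on Matrigel. Per the study, *Piezo1* cKO cells carried *Piezo1* flox/flox with *Pax7*CreERT2/+, so that tamoxifen deletes the floxed segment in cells that express *Pax7*. A legend on its RNA-seq data gives the controls as *Pax7*CreERT2/+, and the labels give them only as wild type. The study's methods give daily tamoxifen injections of the mice for ex vivo work. Cells were sorted as VCAM1+, CD31-, CD45- and Sca1-, and 4-OH TMX (1 µM) was also added to the medium of both groups. The ages of the donor mice were not given in the sources used here, and the labels do not name the mouse behind each library, so the p-values measure the spread between these libraries. The libraries held 740936, 931168 and 891531 counts (control 1, 2 and 3) and 810096, 726378 and 769295 counts (*Piezo1* cKO 1, 2 and 3).

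The labels could not be checked with the targeted gene. *Piezo1* (chromosome 8) reached 11, 5 and 6 counts in control 1, 2 and 3, against 7, 12 and 9 counts under the *Piezo1* cKO label. These are 9.49 ± 5.53 and 12.2 ± 3.50 CPM (SD, n = 3), and the second group is not the lower one. Counts from oligo-dT priming lie near the 3' end of a transcript, and reads from outside a deleted segment do not test the deletion. All 8 MuSC and myoblast markers were detected and tested, none was called, and *Myod1*, the myogenic determination factor, stood between 1087 and 1569 CPM in the 6 libraries. The list went both ways. *Sdc4* (254 ± 53.2 against 176 ± 32.1 CPM, edgeR adjusted p = 0.0609) and *Vcam1*, the sort marker (log2 fold change -0.45, edgeR adjusted p = 0.185), were lower in every *Piezo1* cKO library, *Cdh15* (105 ± 30.8 against 152 ± 12.4 CPM) was higher in every one, and *Pax7* was at 21.9 ± 7.32 and 14.3 ± 6.98 CPM with overlap.

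Before S phase, the origin recognition complex with CDC6 and CDT1 loads the MCM2-7 helicase onto origins, and geminin blocks reloading. CDC45 and the GINS complex then switch the helicase on, DNA polymerase alpha with primase lays primers, and polymerases delta and epsilon, held by the PCNA clamp, extend them. Many of these genes are classical targets of E2F transcription factors, which the retinoblastoma family holds in check until the cell commits to division. In muscle, satellite cells re-enter the cycle after injury and leave it again when they differentiate.

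No member of the set passed the test, but the set as a whole lay slightly lower in the *Piezo1* cKO libraries. With edgeR's quasi-likelihood test and Benjamini-Hochberg adjustment over all 8551 genes, 0 of 49 members had an adjusted p under 0.05, against 67 of all genes (0.784%), of which 27 were lower (0.316%). At an unadjusted p under 0.05 there were 15 members, all 15 lower (30.6%), against 5.78% of all genes lower at that p. This count of lower members was 9 without *Piezo1* cKO 3 (4% of all genes), 10 without control 2 (3.9%) and 23 without *Piezo1* cKO 1 (7.46%). DESeq2 also called 0, with 10 members at an unadjusted p under 0.05, against 501 of the 8551 genes tested. Its own filter left an adjusted p for 34 of the 49, the smallest 0.356. The log2 fold change was negative for 45 of 49 members (91.8%), where 49.8% of all genes tested had a negative one. The median over the members was -0.27, with quartiles of -0.41 and -0.17, against 0.00 for all genes tested. A log2 value of -0.27 corresponds to a level 17.2% lower (-17.2%). The smallest log2 fold change of any gene called was 0.56 in size, and 5 members exceeded it.

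**Figure D1:**
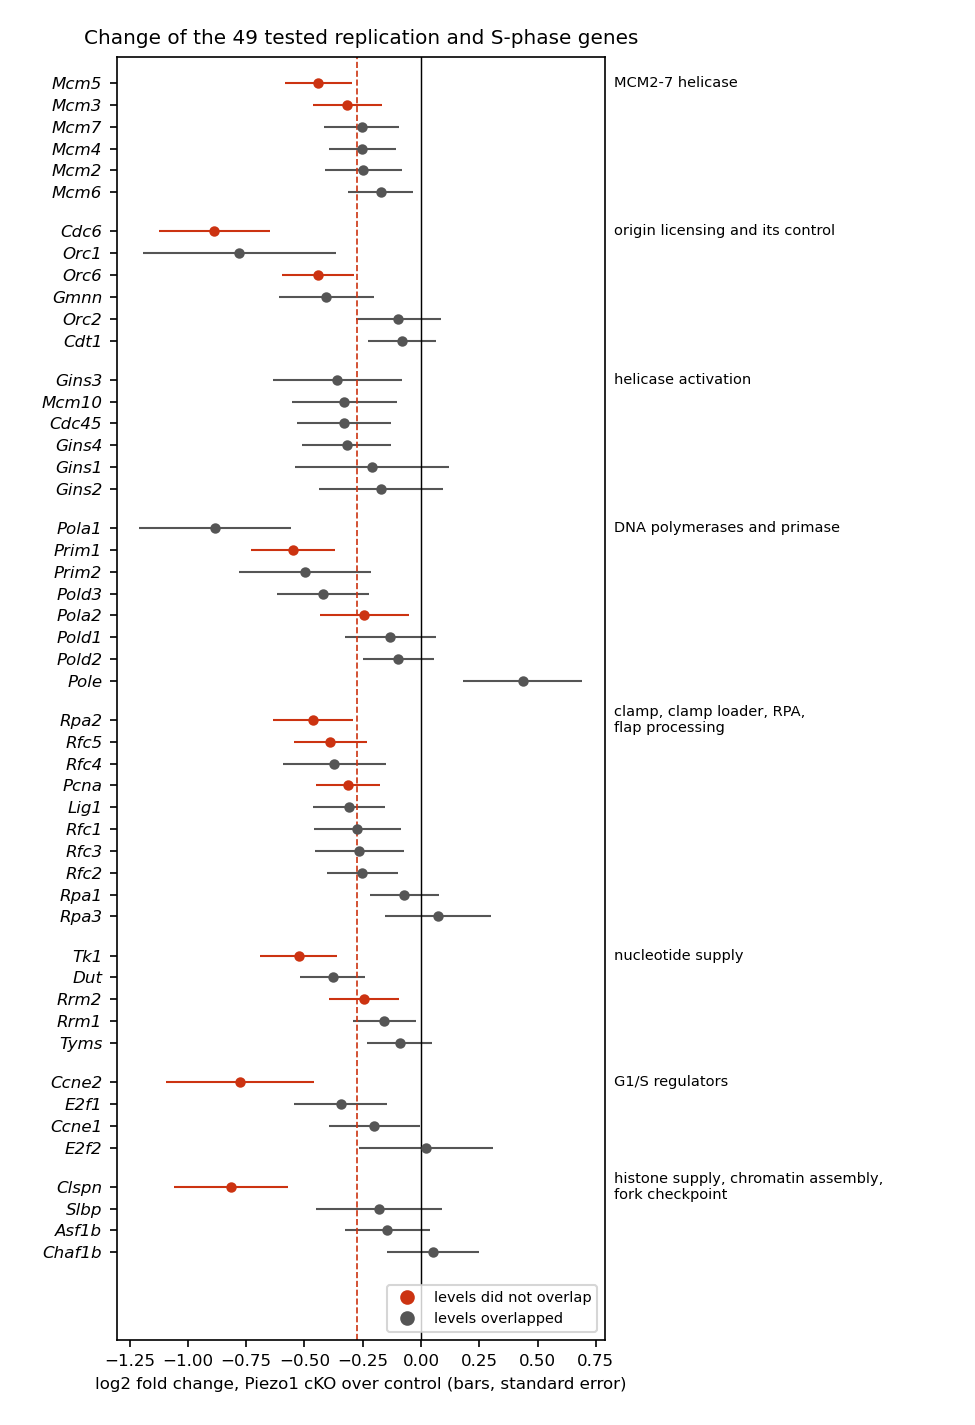
Log2 fold change of each of the 49 tested genes, *Piezo1* cKO over control (horizontal axis), by role, with bars for the standard error. The dashed line is the median of the members (-0.27), red points are the 13 genes whose levels did not overlap between the groups, and 45 of 49 points lie left of 0.

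In 13 members (26.5%) every *Piezo1* cKO library was below every control library, against 8.31% of all genes tested, and in 0 members was every *Piezo1* cKO library above, against 8.2%. The 13 were *Mcm3*, *Mcm5*, *Orc6*, *Cdc6*, *Pola2*, *Prim1*, *Pcna*, *Rfc5*, *Rpa2*, *Rrm2*, *Tk1*, *Ccne2* and *Clspn*. They came from 7 of the 8 roles, the exception being helicase activation. These are values of the same 6 libraries as the fold changes, and they add no independent evidence of a direction.

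The promoters of these genes are shown because E2F motifs are the sequence feature the set is best known for. RefSeq promoters of GRCm38.p6, 250 bases before to 50 after each start, were matched for 43 of the 52 members. Exact matches to TTTCGCGC, TTTGGCGC, TTTCCCGC or TTTGGCGG on either strand, overlapping matches included, were present in 19 of the members' 50 promoters (38%) and in 2.37% of all 32851 promoters. The CCAAT box (CCAAT) was found in 60% of the members' promoters and 37.4% of all, and the CHR element (TTTGAA), a motif of mitotic genes, in 14% and 17.9%. Of the 13 genes whose levels did not overlap, 12 had a promoter in the table and 5 of these held an E2F motif, as did 14 of the 31 other members. Those 31 include the untested *Pole2* and *Chaf1a*, both with a motif, and *Fen1*, without one. Of the 40 tested members with a promoter, 17 held a motif. The median log2 fold change was -0.31 for the 17 tested members with the motif and -0.27 for the 23 without. A match is a string of letters, and binding was not measured. The 5 promoters follow 5' to 3' on the strand of the gene, with E2F motifs in capitals.

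Cdc6 (chr11:98907901-98908200, plus strand): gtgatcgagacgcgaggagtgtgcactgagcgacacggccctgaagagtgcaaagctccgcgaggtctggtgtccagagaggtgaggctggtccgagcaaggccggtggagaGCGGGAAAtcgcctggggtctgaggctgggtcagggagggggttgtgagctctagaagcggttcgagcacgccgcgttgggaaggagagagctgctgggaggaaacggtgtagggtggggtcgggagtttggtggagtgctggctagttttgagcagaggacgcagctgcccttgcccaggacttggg
Clspn (chr4:126556730-126557029, plus strand): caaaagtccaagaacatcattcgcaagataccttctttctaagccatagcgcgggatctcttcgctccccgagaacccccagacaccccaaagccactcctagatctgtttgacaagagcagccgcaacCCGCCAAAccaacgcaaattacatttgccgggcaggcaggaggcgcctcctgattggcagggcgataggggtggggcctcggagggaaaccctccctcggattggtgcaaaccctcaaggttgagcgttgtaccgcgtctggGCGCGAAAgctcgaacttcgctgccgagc
Mcm5 (chr8:75109259-75109558, plus strand): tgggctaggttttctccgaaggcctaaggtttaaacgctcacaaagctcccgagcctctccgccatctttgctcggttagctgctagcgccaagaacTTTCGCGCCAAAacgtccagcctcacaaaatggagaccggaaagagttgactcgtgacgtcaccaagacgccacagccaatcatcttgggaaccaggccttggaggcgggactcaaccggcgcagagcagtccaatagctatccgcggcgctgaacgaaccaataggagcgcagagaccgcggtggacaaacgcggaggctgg
Mcm3 (chr1:20820263-20820562, minus strand): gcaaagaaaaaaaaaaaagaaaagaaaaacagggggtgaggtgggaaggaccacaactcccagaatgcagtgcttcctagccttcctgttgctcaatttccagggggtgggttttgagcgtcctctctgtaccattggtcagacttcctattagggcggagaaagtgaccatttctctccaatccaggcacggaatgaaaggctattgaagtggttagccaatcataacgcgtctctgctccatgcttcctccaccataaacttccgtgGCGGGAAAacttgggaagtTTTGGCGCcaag
Pola2 (chr19:5964157-5964456, minus strand): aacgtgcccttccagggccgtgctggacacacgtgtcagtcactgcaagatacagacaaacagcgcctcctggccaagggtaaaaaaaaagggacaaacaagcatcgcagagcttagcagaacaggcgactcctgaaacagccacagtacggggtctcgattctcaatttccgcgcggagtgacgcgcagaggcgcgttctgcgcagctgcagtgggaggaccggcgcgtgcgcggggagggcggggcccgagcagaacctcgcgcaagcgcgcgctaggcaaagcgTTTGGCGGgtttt

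In *Mcm5* a TTTCGCGC and a TTTGGCGC on the other strand share 4 bases, which gives 1 run of 12 capitals. *Cdc6* and *Clspn*, the members with the smallest adjusted p, held 1 and 2 motifs. The *Cdc6* window was set on a RefSeq start and lies inside the gene as annotated by GENCODE, which begins at 98907801.

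Among the genes that license origins, *Cdc6* (chr11:98907801-98923940 in GRCm38, as are the gene positions that follow), the loader of the MCM helicase, had one of the widest differences, next to *Pola1*, which was ahead of it with limma-voom, with the replicate block and with cyclic loess (-0.95 against -0.86). Its level was 59.0, 104 and 56.7 CPM in control 1, 2 and 3, and 53.2, 30.4 and 35.8 CPM in *Piezo1* cKO 1, 2 and 3. Control 2 stood far above the rest and *Piezo1* cKO 1 lay just under the lowest control. The log2 fold change was -0.89 (SE 0.24), with an edgeR adjusted p of 0.0567, the smallest of any member.

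*Cdc6* was also the member that crossed the threshold most readily. It was called with the size factors of DESeq2 in the edgeR fit (adjusted p = 0.0456), without the filter on low counts (adjusted p = 0.0107) and when every library had to hold 10 counts (adjusted p = 0.0238). It was not called with limma-voom (adjusted p = 0.129), the replicate block (adjusted p = 0.159) or total counts (adjusted p = 0.103). Nor was it with cyclic loess (adjusted p = 0.126) or thinned counts (adjusted p = 0.0951), and DESeq2 gave it no adjusted p. Leaving out 1 library moved its edgeR adjusted p between 0.0018 and 0.520, and its log2 fold change between -1.16 and -0.53.

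*Orc6* (chr8:85299632-85308278), a subunit of the origin recognition complex, had 187, 149 and 170 CPM in the controls and 141, 122 and 109 CPM in the *Piezo1* cKO libraries. The groups did not overlap, but control 2 (149 CPM) and *Piezo1* cKO 1 (141 CPM) were close, with SDs of 18.8 and 16.1 CPM in the 2 groups. Its log2 fold change was -0.44 (edgeR adjusted p = 0.167). *Orc1*, the largest subunit of the complex, was near the filter, with 17.3 ± 3.93 against 9.88 ± 6.84 CPM (log2 fold change -0.78, SE 0.42), and *Piezo1* cKO 1 was within the control range. *Cdt1*, the partner of CDC6, was nearly level at 190 ± 18.6 and 179 ± 33.7 CPM, and so was *Orc2*, with a log2 fold change of -0.10. *Gmnn*, which encodes the CDT1 inhibitor geminin, had a log2 fold change of -0.41 with overlapping levels, and of -0.16 without control 2.

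All 6 subunits of the MCM2-7 helicase, the motor that unwinds DNA at the fork, had negative log2 fold changes, with a median of -0.25, and 2 of them did not overlap. *Mcm5* (chr8:75109569-75128439) had 230, 279 and 247 CPM in the controls and 224, 153 and 180 CPM in the *Piezo1* cKO libraries. *Piezo1* cKO 1 was again close to the lowest control. The log2 fold change of *Mcm5* was -0.44 (SE 0.14, edgeR adjusted p = 0.137).

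*Mcm3* had 173, 219 and 175 CPM against 172, 135 and 148 CPM, so that control 1 and *Piezo1* cKO 1 were almost equal. Its log2 fold change was -0.32 (edgeR adjusted p = 0.376). *Mcm7*, the subunit with the most counts, had 318 ± 60.7 and 267 ± 73.5 CPM and overlapped. The subunits work as a ring with 1 copy of each, and their log2 fold changes ran from -0.17 (*Mcm6*) to -0.44 (*Mcm5*).

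The 6 genes of helicase activation had negative log2 fold changes between -0.17 (*Gins2*) and -0.36 (*Gins3*), with a median of -0.32, and in each of them the groups overlapped. *Gins3*, a subunit of the GINS complex, had 36.0, 39.0 and 27.2 CPM in the controls and 25.4, 26.4 and 27.8 CPM in the *Piezo1* cKO libraries. Control 3 lay among the *Piezo1* cKO values. *Gins4*, the member of this group with the most counts, had 90.2 ± 25.4 and 71.4 ± 9.51 CPM. *Cdc45*, which joins MCM and GINS in the active helicase, had a log2 fold change of -0.33 (SE 0.20), which was -0.06 without control 2.

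In the polymerase and primase group, the 4 genes of the primer-making complex were all on the negative side. *Prim1* (chr10:128015168-128030037), the catalytic primase subunit, had 109, 114 and 89.7 CPM in the controls and 83.7, 64.7 and 64.9 CPM in the *Piezo1* cKO libraries. The groups did not overlap. Its log2 fold change was -0.55 (SE 0.18, edgeR adjusted p = 0.141).

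*Pola1*, the catalytic subunit of polymerase alpha, had a log2 fold change as large as that of *Cdc6* (-0.88, SE 0.33, edgeR adjusted p = 0.229) but a wider spread, with 23.0, 46.8 and 46.0 CPM against 27.9, 27.7 and 7.95 CPM. Control 1 lay under *Piezo1* cKO 1 and 2, and without *Piezo1* cKO 3 the log2 fold change was -0.50. *Pola2*, the accessory subunit, had 77.7, 75.8 and 77.9 CPM against 72.2, 59.4 and 63.6 CPM. These did not overlap, although its log2 fold change was only -0.24 (edgeR adjusted p = 0.668).

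The replicative polymerases were on both sides of 0. The subunits of polymerase delta had log2 fold changes of -0.13 (*Pold1*, catalytic), -0.10 (*Pold2*) and -0.42 (*Pold3*), all with overlapping groups. *Pole*, the catalytic subunit of leading-strand polymerase epsilon, had 30.2, 42.4 and 24.8 CPM in the controls and 54.5, 38.3 and 39.8 CPM in the *Piezo1* cKO libraries. It was the member with the highest log2 fold change (0.44, SE 0.26, edgeR adjusted p = 0.509), and the groups overlapped through control 2.

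**Figure D2:**
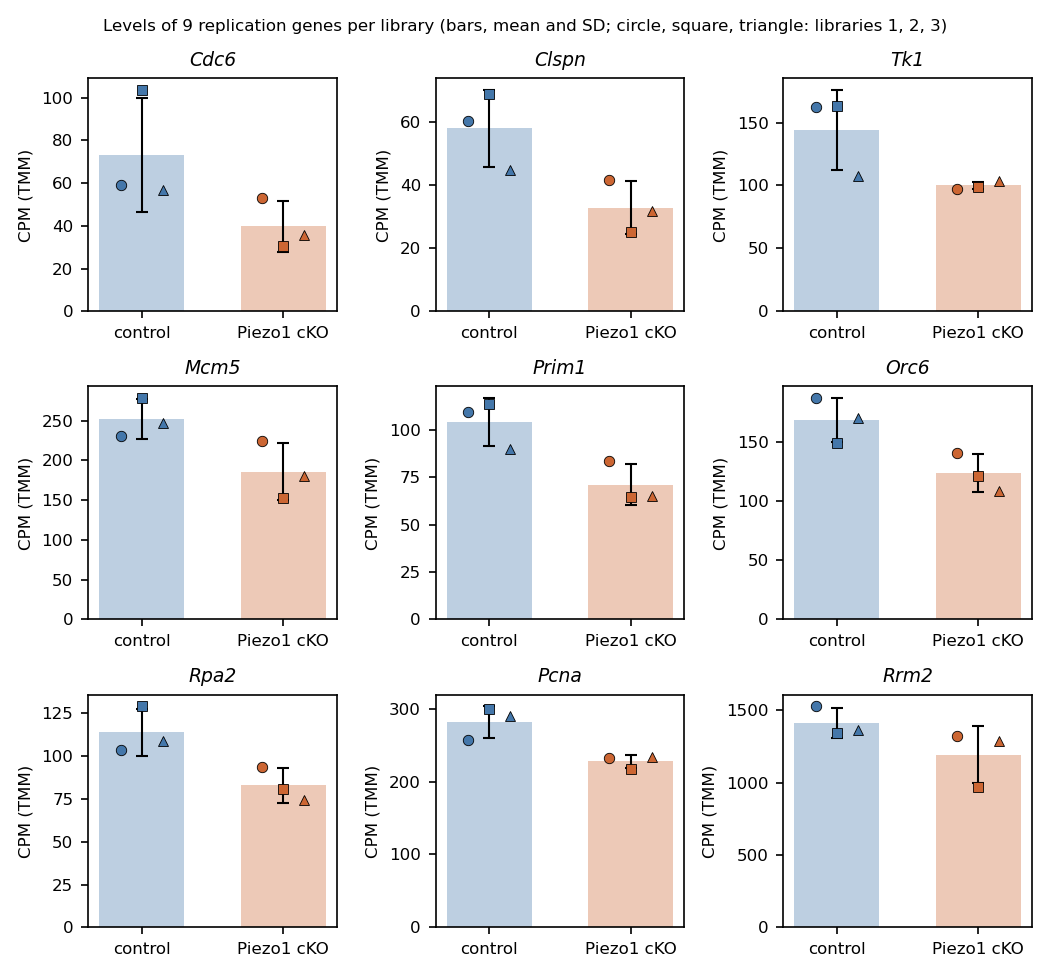
Normalised level in CPM (vertical axis, from 0) of 9 genes in each control and *Piezo1* cKO library (points), with the mean (bars) and SD (error bars, n = 3). In all 9 genes the highest *Piezo1* cKO library is under the lowest control, in *Mcm5* by 224 against 230 CPM, and none passed the adjusted threshold.

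Behind the polymerases, *Pcna* (chr2:132249162-132253314), the sliding clamp, had 257, 299 and 290 CPM in the controls and 232, 218 and 233 CPM in the *Piezo1* cKO libraries. The *Piezo1* cKO values were close together and all under the controls. Its log2 fold change was -0.31 (edgeR adjusted p = 0.320). The annotation names 2 pseudogenes of *Pcna*, with which reads could be shared.

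*Rfc5*, of the clamp loader, had 154, 162 and 133 CPM against 127, 106 and 110 CPM, and *Rpa2*, of the single-strand binding complex RPA, had 104, 129 and 109 CPM against 93.8, 80.6 and 74.2 CPM. In both, no *Piezo1* cKO library reached the control range. The log2 fold changes were -0.39 (*Rfc5*, edgeR adjusted p = 0.258) and -0.46 (*Rpa2*, edgeR adjusted p = 0.200). The other 4 clamp loader genes ran from -0.25 to -0.37. The other two RPA subunits had log2 fold changes of -0.07 (*Rpa1*) and 0.07 (*Rpa3*). *Lig1*, the ligase that seals Okazaki fragments, had -0.31 with overlapping groups.

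All 5 genes of nucleotide supply had negative log2 fold changes. *Tk1* (chr11:117815526-117826092), the thymidine kinase of the salvage pathway, had 162, 163 and 107 CPM in the controls and 97.6, 99.1 and 103 CPM in the *Piezo1* cKO libraries. Control 3 was far under the other controls and just above *Piezo1* cKO 3. Its log2 fold change was -0.52 (SE 0.16, edgeR adjusted p = 0.118).

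*Rrm2*, the regulated subunit of ribonucleotide reductase, had 1532, 1342 and 1364 CPM against 1319, 967 and 1289 CPM. Only *Piezo1* cKO 2 stood well below the controls. Its log2 fold change was -0.24 (edgeR adjusted p = 0.531), and -0.01 after cyclic loess normalisation, a scaling that depends on the level. *Dut*, the dUTPase, had a log2 fold change of -0.38 with an overlap between control 3 and *Piezo1* cKO 1, and *Tyms*, the source of new thymidylate, was at 214 ± 13.7 and 201 ± 3.10 CPM.

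Of the regulators of the G1/S step, *Ccne2* (chr4:11191351-11204779), which encodes the CDK2 partner cyclin E2, had 27.3, 36.8 and 24.8 CPM in the controls and 22.8, 18.5 and 10.6 CPM in the *Piezo1* cKO libraries. The groups did not overlap, and *Piezo1* cKO 3 was the lowest. The log2 fold change was -0.78 (SE 0.32, edgeR adjusted p = 0.273). *Ccne1*, for cyclin E1, had -0.20, *E2f1* -0.35 and *E2f2* 0.02, all with overlapping groups.

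*Clspn* (chr4:126556935-126593903), the gene of claspin, which links the replication fork to the checkpoint kinase CHK1, had 60.4, 69.2 and 44.9 CPM in the controls and 41.8, 25.1 and 31.8 CPM in the *Piezo1* cKO libraries. The lowest control and the highest *Piezo1* cKO library were neighbours, as in *Cdc6*. The log2 fold change was -0.82 (SE 0.24, edgeR adjusted p = 0.0930). *Asf1b* and *Chaf1b*, histone chaperones, had log2 fold changes of -0.14 and 0.05, and *Slbp*, the binding protein of histone mRNA, -0.18.

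Several of these transcripts overlap a gene on the opposite strand in the annotation, *Orc6* with *Vps35*, *Rfc5* with *Wsb2*, *Tk1* with *Afmid*, *Ccne2* with *Ints8* and *Mcm7* with *Cops6*. Whether counting used the strand was not given in the sources used here, so reads of such pairs may not be told apart.

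The difference was unevenly spread over the libraries. The mean log2 CPM of the 49 members was 6.62, 6.82 and 6.58 in control 1, 2 and 3 and 6.52, 6.26 and 6.34 in *Piezo1* cKO 1, 2 and 3, or 6.67 ± 0.13 and 6.37 ± 0.13 (SD, n = 3). The groups did not overlap in this mean, but *Piezo1* cKO 1 came close to control 3, with a difference of -0.06. Control 2 and *Piezo1* cKO 2 formed the ends, 0.56 apart.

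Control 2 was the highest of the 6 libraries in 31 of 49 members, and *Piezo1* cKO 2 the lowest in 26, where 20.7% and 20.8% of all genes tested had these extremes. *Piezo1* cKO 1 was the highest of its group in 32 members, where 37.8% of all genes had this order. *Piezo1* cKO 2 was under all controls in 38 members and above all in 2, *Piezo1* cKO 1 in 26 and 4, and *Piezo1* cKO 3 in 26 and 3. Of all genes tested, 29.1, 24.3 and 27% lay under all controls in *Piezo1* cKO 2, 1 and 3, and 28.7, 26.4 and 25.7% above. As a share of all counts, the 49 genes took 0.663, 0.771 and 0.657% in the controls and 0.668, 0.559 and 0.600% in the *Piezo1* cKO libraries, so on this scale *Piezo1* cKO 1 was within the control range.

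Single libraries decided which members were called. Without *Piezo1* cKO 1, 4 members were called lower (*Mcm5*, *Cdc6*, *Prim1* and *Clspn*), without control 3 the calls were *Cdc6*, *Tk1* and *Clspn*, and without control 1 only *Cdc6*. The same fits called 0.83, 0.532 and 0.323% of all genes lower, against 0.316% with all libraries. Leaving out any of the other 3 libraries left 0 members called. The log2 fold change of 38 of the 49 members moved by over 1.5 times when 1 library was left out, and 10 turned sign. The median over the members stayed negative in each case, between -0.37 without *Piezo1* cKO 1 and -0.20 without control 2.

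**Figure D3:**
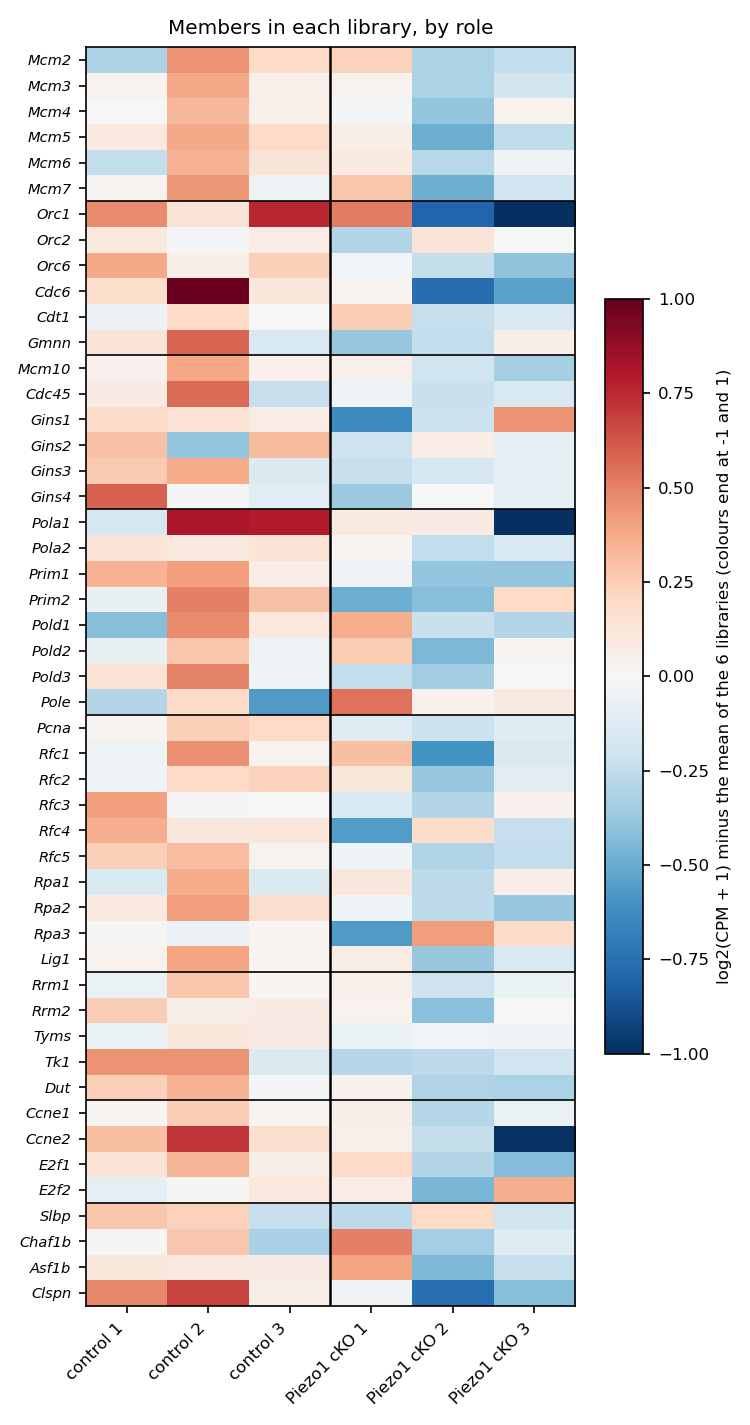
Level of each of the 49 members (rows, grouped by role) in the 6 libraries (columns), as log2(CPM + 1) minus the mean of the 6. Control 2 holds the darkest red column and *Piezo1* cKO 2 the darkest blue one, with 31 and 26 of the highest and lowest values, and *Piezo1* cKO 1 is mixed.

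Other genes of the pathway stood on the same side. Of 63 further replication and S-phase genes that were tested (fork protection, histone deposition, recombination and mismatch repair), 51 had a negative log2 fold change, with a median of -0.22, and 2 were called lower and 0 higher, against 0.316% of all genes called lower. *Supt16*, of the FACT complex that moves histones at the fork, fell by 0.81 on the log2 scale (SE 0.18, edgeR adjusted p = 0.0077). It had 109, 142 and 93.3 CPM in the controls and 69.7, 62.1 and 64.9 CPM in the *Piezo1* cKO libraries, with no overlap.

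*Hells*, a chromatin remodeller needed for DNA methylation, fell by 0.70 (SE 0.17, edgeR adjusted p = 0.0148), from 139 ± 21.8 to 85.5 ± 10.4 CPM. In this list 13 genes did not overlap (20.6%), all 13 lower, against 8.31% of all genes. The mean over the list did overlap, since control 1 (at -0.01 around the average library) lay under *Piezo1* cKO 1 (0.06).

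Mitotic genes, which act after S phase, lay on the same side. Of 39 tested, 35 had a negative log2 fold change with a median of -0.19, and 2 were called lower, against the same 0.316%. With scaling by total counts the median was -0.12, where that of all genes moved to 0.08. *Prc1*, the organiser of the central spindle, fell by 1.21 (SE 0.28, edgeR adjusted p = 0.0114), from 44.9 ± 7.24 to 19.1 ± 3.49 CPM. *Cenpf*, a kinetochore protein, fell by 0.63 (edgeR adjusted p = 0.0294), from 139 ± 4.95 to 89.4 ± 10.5 CPM. Whether the lists differ from each other was not tested. DESeq2 called 0 genes in either list, but it gave *Prc1* no adjusted p (DESeq2 unadjusted p = 0.0018), so that gene could not be called. None of the 4 edgeR calls held without *Piezo1* cKO 2 or without *Piezo1* cKO 3. The highest edgeR adjusted p with 1 library left out was 0.178 for *Supt16*, 0.202 for *Hells*, 0.178 for *Prc1* and 0.278 for *Cenpf*. Without control 2 the calls of *Supt16*, *Hells* and *Cenpf* were lost, and without control 1 those of *Prc1* and *Cenpf*.

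**Figure D4:**
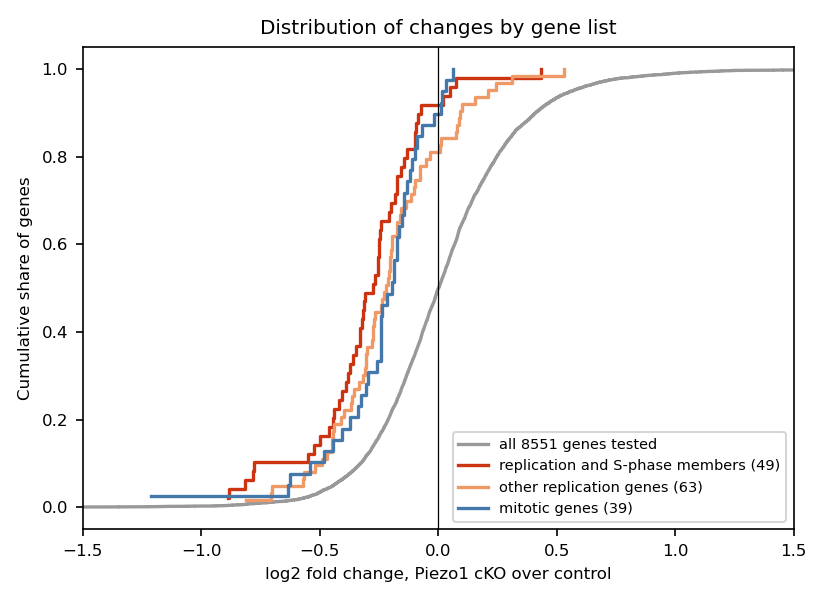
Cumulative share of genes (vertical axis) against log2 fold change, *Piezo1* cKO over control, for the 49 members, 63 other replication genes, 39 mitotic genes and all 8551 genes tested. The medians are -0.27, -0.22, -0.19 and 0.00, and the curves of the 3 lists run close together, left of all genes.

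Genes of muscle differentiation, which mark cells that have left the cycle, lay on the other side, and ranked the libraries almost in reverse. Of 35 such genes in the count table, 20 passed the filter and were tested. Of these, 19 had a positive log2 fold change, with a median of 1.49. Called higher were 4 (*Actn3*, *Tnni2*, *Jph2* and *Smyd1*), against 0.468% of all genes. A gene low in the controls could pass the filter through the *Piezo1* cKO libraries alone, as *Tnni2* did (6, 2 and 4 counts against 16, 24 and 12). The count of 19, the median and the library order may lean to that side through the filter. In control 2, *Smyd1* had 1 count and *Tnni2* 2, under the floor of 3 counts. DESeq2 called 2 of the list, *Actn3* among them, and gave *Tnni2*, *Jph2* and *Smyd1* no adjusted p. *Actn3* was the only one of the 4 called by edgeR whichever library was left out. *Tnni2* was lost without *Piezo1* cKO 2, *Jph2* without *Piezo1* cKO 2 or control 2, and *Smyd1* without control 2, control 3, *Piezo1* cKO 2 or *Piezo1* cKO 3. *Actn3*, a sarcomeric actinin, rose from 64.0 ± 17.1 to 147 ± 16.0 CPM. With the average of all 6 libraries set to 0, the mean log2 CPM of this list stood at -0.15, -1.56 and -0.51 in control 1, 2 and 3 and at 0.30, 1.35 and 0.56 in *Piezo1* cKO 1, 2 and 3.

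The replication genes had 0.09, 0.30 and 0.06 in the controls and -0.01, -0.26 and -0.18 in the *Piezo1* cKO libraries on the same scale. Control 2 was thus the highest library for replication and the lowest for differentiation, and *Piezo1* cKO 2 the reverse, and the other 4 libraries followed the reversed order except that control 1 and 3 were exchanged. In these bulk libraries, fewer cells in S phase and less of each transcript per cell cannot be told apart. The part of differentiation in the difference of the replication genes was not tested.

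**Figure D5:**
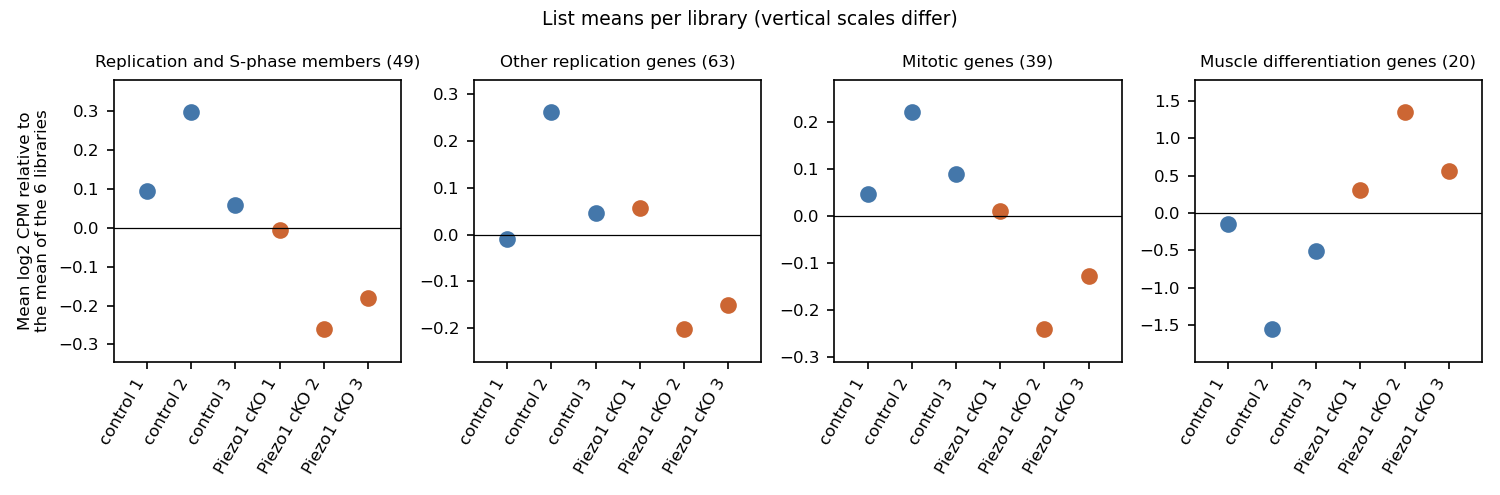
Mean log2 CPM of each list in each library relative to the mean of the 6 libraries (vertical axes with different scales), control in blue and *Piezo1* cKO in orange. Control 2 is at 0.30 for the replication members and -1.56 for the muscle differentiation genes, and *Piezo1* cKO 2 at -0.26 and 1.35.

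Markers of other cells were low. The 5 fibro-adipogenic markers analysed summed to 41.7, 40.2 and 76.8 CPM in the controls and 29.2, 22.5 and 23.9 CPM in the *Piezo1* cKO libraries. *Dcn*, the most abundant of them in the controls and the only one tested, fell by 2.17 (edgeR adjusted p = 3.9e-04, with no adjusted p from DESeq2). It passed the filter only through the controls, with 18, 23 and 37 counts against 8, 5 and 3. Its change therefore does not stand for the list. *Lum* was at 0 in control 3 and *Piezo1* cKO 2. *Ly6a*, the Sca1 gene, did not pass the filter and went the other way, at 2.88 ± 0.656 and 9.61 ± 2.91 CPM. Leukocyte markers (*Cd68* and *Lyz2*) summed to 7.19 to 26.8 CPM and the 4 endothelial markers analysed to 1.18 to 18.6 CPM, with *Emcn* at 0 in all libraries but control 1, and the sort was set against both types. The 4 mural markers analysed summed to 44.6, 31.2 and 42.5 CPM in the controls and 54.5, 58.1 and 83.5 CPM in the *Piezo1* cKO libraries. This sum was higher with no overlap, but *Pdgfrb*, 1 of the 4, was not, at 6.49 ± 4.63 against 5.25 ± 3.53 CPM. *Cspg4*, the most abundant, was at 32.6 ± 6.73 and 54.4 ± 15.3 CPM and higher in every *Piezo1* cKO library (log2 fold change 0.76, edgeR adjusted p = 0.143), *Rgs5* had 0, 0 and 1 counts against 2, 4 and 6, and *Myh11* was at 0 in all libraries but *Piezo1* cKO 2. The part of these cells in the difference of the replication genes was not tested.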

How the data were processed

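Counts of UMIs per gene in 3 wild type and 3 *Piezo1* cKO libraries were used as deposited. According to the labels and the study's methods, the authors reverse transcribed total RNA with barcoded oligo-dT primers, mapped reads with STAR 2.7.9a to GRCm38, assigned them with featureCounts 2.0.1 and collapsed UMIs with UMI-tools 1.1.1. Settings for multi-mapping reads and for strand were not given in the sources used here. All 6 columns were used. Gene positions and overlaps were taken from the GENCODE annotation of GRCm38 by gene name.

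In R 4.3.3, edgeR 4.0.16 (filterByExpr with a minimum count of 10, TMM, robust quasi-likelihood fit without covariates) was fitted to all genes, with Benjamini-Hochberg adjustment and calls at an adjusted p under 0.05. CPM are scaled by TMM over the genes kept, and log2 CPM used a prior count of 2. DESeq2 1.42.0, limma 3.58.1 (voom), other scalings and filters, a replicate block, thinning, and leaving out each library were alternatives, and cyclic loess was an addition made with the data in view. The fits were tested on simulated data first. No 2 libraries of a group agreed within sampling noise. The floor of 3 counts equals 3.22 to 4.13 CPM per library, and floors cover counting error only.

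The members and lists were chosen with earlier results of these data known, so no p over a list was computed. By rule, the text names called members, those without overlap, and in each role the member with the largest change and with the highest mean level, and from other lists the called genes and the 2 with the smallest p. The other genes named (*Orc1*, *Orc2*, *Gmnn*, *Mcm6*, *Gins1*, *Gins2*, *Cdc45*, *Pold1*, *Pold3*, *Pole*, *Rpa1*, *Rpa3*, *Lig1*, *Dut*, *Tyms*, *E2f1*, *E2f2*, *Chaf1b* and *Slbp*, and the cell type markers) were chosen after their values were seen. The result of 1 further marker list is not reported here.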

Additional observations from a re-analysis of the deposited data

How the results depend on the processing

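The median log2 fold change of the members was negative under every alternative run, and moved by less than the spread between replicates (SD 0.13). It was -0.20 with scaling by total counts, which shifted the median of all genes to 0.08 and moved the split of the genes called from 27 lower and 40 higher to 18 lower and 49 higher. Members called were 1 of 49 (*Cdc6*) with DESeq2 size factors in edgeR, against 72 of 8551 genes (28 lower). *Cdc6* was also the 1 of 51 called without a filter, against 129 of 19247 genes (47 lower). With at least 10 counts in every library it was the 1 of 46, against 92 of 7510 genes (35 lower). At an adjusted p under 0.1, 2 of 49 members were called, against 124 of 8551 genes. With 1 library left out, 0 to 4 of 49 members were called. All genes called were 27 with DESeq2 (15 lower and 12 higher), 129 without a filter, 32 with cyclic loess, 124 at an adjusted p under 0.1, and 6 to 174 with 1 library left out (105 without control 1, 131 without control 3, 174 without *Piezo1* cKO 1, 6 without *Piezo1* cKO 2 and 29 without *Piezo1* cKO 3). Members with no overlap were 15 to 24 lower and 0 to 1 higher with 1 library left out, against 11.8 to 15.8% of all genes lower and 12.3 to 14.6% higher, where fewer libraries leave less room to overlap. Beyond that construction, the cause of these shifts was not tested. With 1 library left out, 10 members turned sign, 7 to positive and 3 (*Rpa3*, *E2f2* and *Chaf1b*) to negative. Among those named by rule, the log2 fold change turned positive for *Asf1b* without *Piezo1* cKO 2 (range -0.44 to 0.019), for *Cdt1* without control 2 (0.0065) or *Piezo1* cKO 2 (0.0063, lowest -0.25), and for *Pold2* without control 2 (0.032) or *Piezo1* cKO 2 (0.075, lowest -0.27). Outside the rule, *Pold1* (0.11) and *Rpa1* (0.13, and also without *Piezo1* cKO 2) turned without control 2, and *Orc2* (0.012) and *Gins1* (0.018) without *Piezo1* cKO 1. Of 308 values with an adjusted p of the 21 members named by rule, 292 kept direction and side of the threshold, 11 passed it and 5 turned.

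The replicate numbers did not pair the libraries (correlations of deviations -0.14, -0.20 and 0.01), and with the replicate block 0 members and 46 genes in all were called, with a member median of -0.29. Of the other list genes, *Hells* (adjusted p = 0.0582), *Cenpf* (adjusted p = 0.101), *H4c4* (adjusted p = 0.0948), *Smyd1* (adjusted p = 0.283) and *Jph2* (adjusted p = 0.0948) were not called with the block. At these depths the members' standard errors were 0.13 to 0.42, so that a difference of the members' median size could not be told from 0 in most single genes.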

Other observations

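Regulators upstream of S phase lay on both sides of 0. Of 12 E2F and pocket protein regulators tested, 8 had a negative log2 fold change with a median of -0.14, and 0 were called by edgeR or DESeq2. With scaling by total counts the median was -0.06, where that of all genes moved to 0.08. The smallest p in this list belonged to *Tfdp2*, a dimerisation partner of E2F, with 39.0 ± 2.26 and 55.4 ± 10.8 CPM (edgeR adjusted p = 0.376), and to *Rb1*, the retinoblastoma protein, with 27.2 ± 7.29 and 40.9 ± 11.4 CPM (edgeR adjusted p = 0.378). Both were on the positive side. Of 10 CDK inhibitors, D cyclins and their kinases, 6 had a positive log2 fold change, with a median of 0.15 (0.06 with cyclic loess), and 0 were called by edgeR or DESeq2. At an unadjusted p under 0.05, 2 of the 10 were lower and 2 higher (5.78% and 6.14% of all genes), and 2 did not overlap in each direction (8.31% and 8.2% of all genes). Those lower in every *Piezo1* cKO library were *Cdk4*, with means of 336 and 279 CPM, and *Cdkn2c*, with 85.8 and 67.8 CPM, both named after their values were seen. *Ccnd1*, also named after its values were seen, had means of 574 and 460 CPM with overlapping groups (log2 fold change -0.32, edgeR adjusted p = 0.317). *Cdkn2b*, the p15 inhibitor of CDK4 and CDK6, had 59.0, 32.3 and 43.7 CPM in the controls and 63.4, 92.5 and 71.6 CPM in the *Piezo1* cKO libraries (log2 fold change 0.77, edgeR adjusted p = 0.0642). *Ccnd3*, the gene of cyclin D3, which stays present in differentiating muscle, had 58.0 ± 2.09 and 89.4 ± 10.5 CPM (log2 fold change 0.63, edgeR adjusted p = 0.0996). In both genes every *Piezo1* cKO library was above the controls.

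Histone genes of the replication-dependent kind make mRNA that normally ends without a poly(A) tail, and oligo-dT priming captures little of it. Of 18 in the table, 7 were tested and 6 had a positive log2 fold change, where 49.8% of all genes tested had a negative one. By edgeR 1 of the 7 was called higher, against 0.468% of all genes. *H4c4* was called higher, with 59.0, 85.9 and 70.8 CPM in the controls and 119, 111 and 119 CPM in the *Piezo1* cKO libraries (log2 fold change 0.68, edgeR adjusted p = 0.0294). DESeq2 did not call it (adjusted p = 0.244), nor did edgeR without control 1, control 3, *Piezo1* cKO 2 or *Piezo1* cKO 3 (highest adjusted p = 0.185). *Slbp*, whose product binds the stem-loop of these mRNAs, had a log2 fold change of -0.18. *H1f2*, a linker histone, was at 48.6 ± 17.8 and 68.3 ± 7.23 CPM (edgeR adjusted p = 0.302). The share of these transcripts that carried a poly(A) tail was not measured here.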
